A study of Mus musculus with 18 samples.

Results

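The genes described here encode the subunits of voltage-gated calcium and sodium channels in mouse cortex after spreading depolarization (SD). They were chosen by name, as every gene of the deposited tables whose symbol starts with Cacn or with Scn and a digit, apart from a few genes of these families that are not analysed here. That left 27 genes among the 13029 listed for both stimulation systems, 20 of calcium channels and 7 of sodium channels. Of these, 11 encode a pore-forming subunit and 16 an auxiliary one. The choice went by name, with earlier results of these data known. The tables list a gene only if it reached a mean of 0.5 FPKM in 1 of the groups compared, so family members below that level are absent.

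RNA of 18 cortex libraries came from 12 healthy female C57BL/6 mice aged 7 to 8 weeks. In the KCl system, mice without a transgene received KCl at 1 spot of the brain, and their sham controls received NaCl. In the optogenetic system all mice, sham included, were Thy1-ChR2-YFP heterozygotes. The Thy1 promoter drives the light-gated cation channel in neurons, and SD was set off by light of 2 mW for 20 s. Stimulated mice of both systems had 4 SDs within 2 h, 1 every 30 min, and gave 1 library of the SD hemisphere and 1 of the contralateral hemisphere. Each of the 6 groups holds 3 libraries, and each library is 1 mouse or 1 side of it. The sources used here give neither the hemisphere taken from sham mice nor the time of collection.

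An SD is a wave of strong, lasting depolarization that travels slowly through grey matter and silences it for a while. Voltage-gated sodium channels start the action potential and voltage-gated calcium channels let calcium into dendrites and nerve endings, where it triggers transmitter release and gene transcription. In both families 1 large protein forms the pore, while smaller subunits set how much of it reaches the membrane and how it opens. Inherited changes in members of both families cause epilepsy.

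The promoters of 2 pairs of neighbouring genes are shown first, because the values of neighbours are set side by side in the results. Scn2b and Scn4b, both for sodium channel beta subunits, lie 8.32 kb apart on chromosome 9, and Cacng7 and Cacng8, both for gamma subunits, lie 22.5 kb apart on chromosome 7. Their promoters in RefSeq (GRCm38.p6, plus strand, 250 bases before to 50 after the start) are printed 5′ to 3′, at chr9:45117626-45117925 for Scn2b, chr9:45138374-45138673 for Scn4b, chr7:3332575-3332874 for Cacng7 and chr7:3393792-3394091 for Cacng8. The RefSeq starts of Scn2b, Scn4b and Cacng8 lie inside the gene spans that the deposited tables give (from 45117782, from 45138395, and 3390683 to 3415648). That of Cacng7 lies before its span (from 3332955). Capitals mark a match to 1 of the 5 motifs searched on both strands.
Scn2b promoter: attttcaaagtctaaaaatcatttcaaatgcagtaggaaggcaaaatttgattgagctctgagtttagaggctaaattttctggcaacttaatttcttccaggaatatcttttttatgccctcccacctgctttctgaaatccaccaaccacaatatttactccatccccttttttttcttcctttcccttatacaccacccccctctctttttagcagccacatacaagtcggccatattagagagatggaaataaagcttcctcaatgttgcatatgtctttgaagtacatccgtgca
Scn4b promoter: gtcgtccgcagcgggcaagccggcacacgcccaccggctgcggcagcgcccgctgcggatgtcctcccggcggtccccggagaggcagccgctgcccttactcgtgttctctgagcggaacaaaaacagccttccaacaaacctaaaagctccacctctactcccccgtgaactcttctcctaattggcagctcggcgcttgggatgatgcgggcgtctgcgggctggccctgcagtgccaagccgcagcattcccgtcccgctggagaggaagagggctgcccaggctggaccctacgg
Cacng7 promoter: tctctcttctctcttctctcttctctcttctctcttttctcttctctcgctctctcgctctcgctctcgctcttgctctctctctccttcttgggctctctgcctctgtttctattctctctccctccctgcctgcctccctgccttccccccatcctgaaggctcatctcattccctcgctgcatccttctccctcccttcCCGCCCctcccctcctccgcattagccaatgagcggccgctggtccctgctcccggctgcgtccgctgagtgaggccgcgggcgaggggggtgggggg
Cacng8 promoter: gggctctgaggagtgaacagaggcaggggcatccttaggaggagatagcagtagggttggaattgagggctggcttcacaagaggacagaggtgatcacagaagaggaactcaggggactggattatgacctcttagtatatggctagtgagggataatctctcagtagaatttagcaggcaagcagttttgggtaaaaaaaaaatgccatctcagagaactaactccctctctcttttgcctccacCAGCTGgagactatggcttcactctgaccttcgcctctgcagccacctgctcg
Cacng7 held 1 GC box (GGGCGG, here read from the other strand), and the promoters of Scn2b and Scn4b held no match. Cacng8 held 1 match to the E-box, which straddles the RefSeq start. The whole Cacng8 stretch lies inside the deposited gene span, and whether it works as a promoter was not tested. GC content was 38.3% in the Scn2b promoter and 66.3% in that of Scn4b, 62% for Cacng7 and 50% for Cacng8. RefSeq entries were found for 22 of the 27 genes, 33 promoters in all. The cAMP response element TGACGTCA, the site of the activity-dependent factor CREB, was in 0 of the 33 and in 2.95% of the promoters of all listed genes. An AP-1 site, spelled TGAGTCA in either direction, was in 1 of 33 (Cacng5) against 3.58%. The TATA box, searched as TATAAA, was in 2 of 33 (Cacna1d and Scn2a) against 7.23%. The GC box was in 42.4% against 61.6%. The E-box, searched as CAGCTG, was in 33.3% (the Cacng8 match counted) against 15.7%, and no motif contains another.

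Levels are FPKM (fragments per kilobase of transcript, scaled to library size), which are per length and can be set side by side between genes. Without read counts in the tables, sequencing depth is unknown, and precision is limited by 3 libraries per group. The FPKM over all listed genes added up to 217205 at the lowest and 237318 at the highest. Summed over 5 neuronal markers, levels were between 531 and 628 FPKM in all 18 libraries, and the 5 markers of excitatory cortical neurons summed to between 413 and 479, so markers of the labelled tissue were present in every library. Markers of neighbouring tissue varied far more: 5 striatal markers summed to between 24.1 and 145 FPKM and 4 choroid plexus markers to between 3.78 and 1121. In bulk tissue, fewer cells of a type and less RNA per cell cannot be told apart. Fos, Npas4 and Arc, genes switched on by neuronal activity, were called higher in the SD hemisphere than in the contralateral one in both systems, and higher than in sham in the optogenetic system. In KCl SD against NaCl sham 0 of these 3 was called by limma, although all 3 had an unadjusted p under 0.05, with Fos at a log2 fold change of 2.78 (adjusted p = 0.0558). Fos and Arc were also called higher in NaCl sham than in optogenetic sham, with Fos at 31 ± 16.9 against 12.7 ± 9.14 FPKM (± standard deviation, n = 3 each). All 3 genes had an unadjusted p under 0.05 there, with a median log2 difference of 1.31. In KCl contralateral against NaCl sham all 3 likewise had an unadjusted p under 0.05, with a median of -1.47, and 0 was called. The median of these 3 genes thus put NaCl sham, the KCl control, above both optogenetic sham and KCl contralateral. Whether NaCl sham was raised or the other groups were low was not tested.

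Among the 4 genes for pores of high-voltage-activated calcium channels described here, Cacna1e was the most abundant. Its R-type channel made up 42.1% of the summed FPKM of the 4 genes on average, and Cacna1b, the presynaptic N-type channel, 33.5%. The L-type channels Cacna1c and Cacna1d, which couple calcium entry to transcription, held 12.4% and 12%. The sum of the 4 was narrow, from 34.3 to 41.3 FPKM over the 18 libraries. The T-type pores, which open near the resting potential and support burst firing, were led by Cacna1i with 51.5% of their sum, followed by Cacna1g with 27.2% and Cacna1h with 21.3%.

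Scn8a and Scn2a, the sodium channels of the axon initial segment and of axons, were at similar levels. Over the libraries Scn8a ranged from 23.7 to 30.6 FPKM and Scn2a from 20.4 to 35.1, so the order of their levels was not settled beyond their spread. Scn3a, a channel most abundant before birth, lay between 4.53 and 5.89 FPKM. Scn7a, a sodium sensor of glial cells and not a typical voltage-gated channel, was the lowest of the 27, at 0.414 to 1.22 FPKM. It was the sole gene of the 27 that did not reach 2 FPKM on average.

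Several auxiliary subunits lay above all pore-forming ones. Scn2b, a sodium channel beta subunit, was at 56.5 to 70.3 FPKM and made up 61.7% of the sum of the 3 sodium channel beta genes described here on average, Scn4b 34% and Scn3b 4.33%. Among the cytoplasmic calcium channel beta subunits, which carry the pore to the membrane, Cacnb3 held 44.0%, Cacnb4 36.0%, Cacnb1 17.0% and Cacnb2 2.96%. Among the gamma subunits Cacng7 led with 33.9%, then Cacng3 with 26.7%, Cacng2 with 17.8% and Cacng8 with 12.9%. Cacng2, Cacng3, Cacng4 and Cacng8 are better known as partners of AMPA glutamate receptors (TARPs) than as calcium channel subunits. The alpha2delta subunits, extracellular proteins that help channels reach the synapse, were led on average by Cacna2d1, a target of gabapentin, at 56.2% of their sum. That share ranged from 39.2% to 67% over the libraries. Cacna2d3 was above Cacna2d1 in KCl contralateral 3, optogenetic contralateral 3 and optogenetic SD 2.

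**Figure D1:**
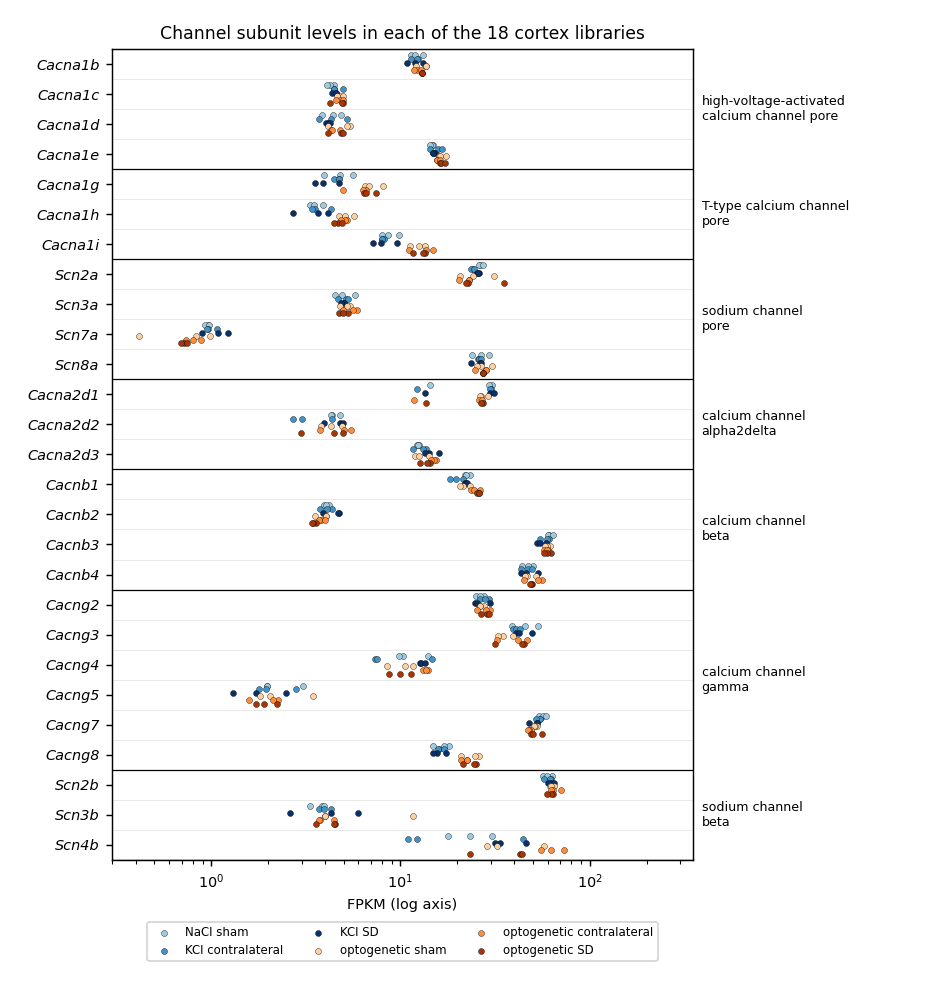
FPKM on a log axis of each of the 27 subunit genes (rows, grouped by class) in each of the 18 libraries (points, coloured by group, blue for the KCl system and orange for the optogenetic system). Most genes form a tight cloud, while Cacna2d1, Scn3b and Scn4b spread out and Cacna1h, Cacna1i and Cacng8 separate by system.

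Spread over the libraries was near that of all genes. The highest library was less than 1.5 times the lowest for 14 of 27 (51.9%), against 42.1% of all genes tested, and the median standard deviation within groups was 0.115 against 0.126 (log2 scale). Cacnb3 (52.9 to 63.9 FPKM), Cacng2 (24.8 to 29.7), Cacna1c (4.09 to 4.99) and Cacna1e (14.3 to 17.5) each stayed within 1.23-fold over all 18 libraries. A few genes were not steady, and they are described first because a single library weighs on their comparisons.

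Cacna2d1 (chromosome 5, 15934691 to 16374511) took 1 of 2 levels. It was at 14.4, 12.2, 13.5, 11.8 and 13.6 FPKM in NaCl sham 2, KCl contralateral 3, KCl SD 2, optogenetic contralateral 3 and optogenetic SD 2, and between 26.1 and 31.1 FPKM in the other 13 libraries. No library lay between 14.4 and 26.1, a gap on the log2 scale that 1.95% of genes exceeded. The 5 low libraries came from 5 of the 6 groups, optogenetic sham being the group without one, and in no stimulated mouse were both sides low. Cacna2d3 (11.7 to 15.9 FPKM over all libraries) and Cacna2d2 (2.70 to 5.51) had smaller gaps, which 94.2% and 14.6% of genes exceeded. What set the low level was not tested.

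Scn3b, a sodium channel beta subunit, was at 3.97, 11.7 and 4 FPKM in the optogenetic sham libraries, and at 6 or less in any other library. The next highest was KCl SD 2. Optogenetic sham 2 enters each comparison with that sham group. Scn2a was at 31.3 FPKM in optogenetic sham 3 and 35.1 in optogenetic SD 3, against at most 27.2 in the remaining libraries. Both are replicate 3 of their group, but they come from different mice.

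**Figure D2:**
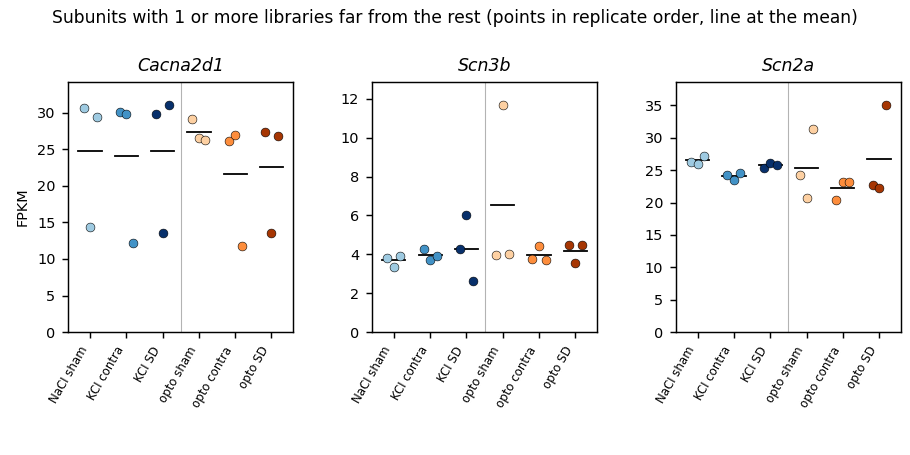
FPKM (linear axes from 0) of Cacna2d1, Scn3b and Scn2a by group, 3 points per group in replicate order and a line at the mean. Cacna2d1 sits at 2 levels in 5 of the 6 groups, Scn3b is at 11.7 in 1 optogenetic sham library, and Scn2a exceeds 30 FPKM in 1 optogenetic sham and 1 optogenetic SD library.

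The first comparison was the SD hemisphere against sham. In the KCl system limma called 0 of the 27 subunit genes, where 0.0694% of all 12972 genes tested were called, and in the optogenetic system 0 of 27, against 0.477% of 13001. At an unadjusted p under 0.05 there were 3 and 1 of the 27, against 7.92% and 8.73% of all genes. Groups did not overlap for 5 and 1 of the 27, against 13% and 14.5% of all genes. The median log2 fold change of the 27 was -0.02 and -0.01, and that of all genes was -0.03 and -0.02. Pore-forming and auxiliary subunits had medians of -0.04 and 0.01 in the KCl system and of -0.01 and -0.02 in the optogenetic system. The authors' deposited table likewise held 0 of the 27 at a q under 0.05 in either comparison, the lowest q being 0.725 and 0.493, and 0 in the other 4 comparisons within a system that it gives.

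Auxiliary subunits had the smallest p-value in each system. Cacna2d3 was at 14.1, 13.5 and 15.9 FPKM in the KCl SD libraries and at 12.2, 12.5 and 12.4 in NaCl sham, so the groups did not overlap. Its log2 fold change was 0.22 (SE 0.08, adjusted p = 0.551). Cacnb3 and Cacng7 also separated in the KCl system, with log2 fold changes of -0.16 (SE 0.06, adjusted p = 0.580) and -0.15 (SE 0.06, adjusted p = 0.580). Cacnb1, a beta subunit that is also the one of skeletal muscle, was at 26.0, 25.5 and 26.0 FPKM in optogenetic SD and at 23.4, 21.3 and 20.6 in optogenetic sham. Its difference of 0.24 (SE 0.06, adjusted p = 0.242) had the lowest adjusted p of the 27 in that comparison. Cacnb2 followed with -0.13 (SE 0.07, adjusted p = 0.641) and Cacna1h, a T-type pore, with -0.13 (SE 0.08, adjusted p = 0.675). In the KCl system Cacnb1 was at 21.9, 22.1 and 22.4 FPKM in the SD hemisphere and at 23.4, 21.8 and 22.2 in sham, a log2 difference of -0.02 (SE 0.06).

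Averaged over both systems in 1 fit of 18 libraries, SD against sham again gave 0 of 27 called, against 0.967% of 12930 genes, and 3 of 27 at an unadjusted p under 0.05, against 11.3%. Precision was high enough to bound most effects averaged over the systems, where opposite effects cancel. For 23 of the 27 the 95% interval lay wholly within a 1.5-fold change in either direction, as it did for 93.2% of all genes. The exceptions were Cacna2d1, Cacng5, Scn3b and Scn4b, whose intervals were wider. All 11 pore-forming genes were inside the bound, among them Scn8a, Cacna1b and Cacna1c. Fitted alone, the KCl system had 22 of 27 inside the bound and the optogenetic system 23 of 27 (share of all genes not given). Over both systems the smallest p-values were those of Cacna2d3 at 0.15 (SE 0.05, adjusted p = 0.273), Cacnb1 at 0.11 (SE 0.04, adjusted p = 0.315) and Cacnb3 at -0.08 (SE 0.04, adjusted p = 0.435).

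**Figure D3:**
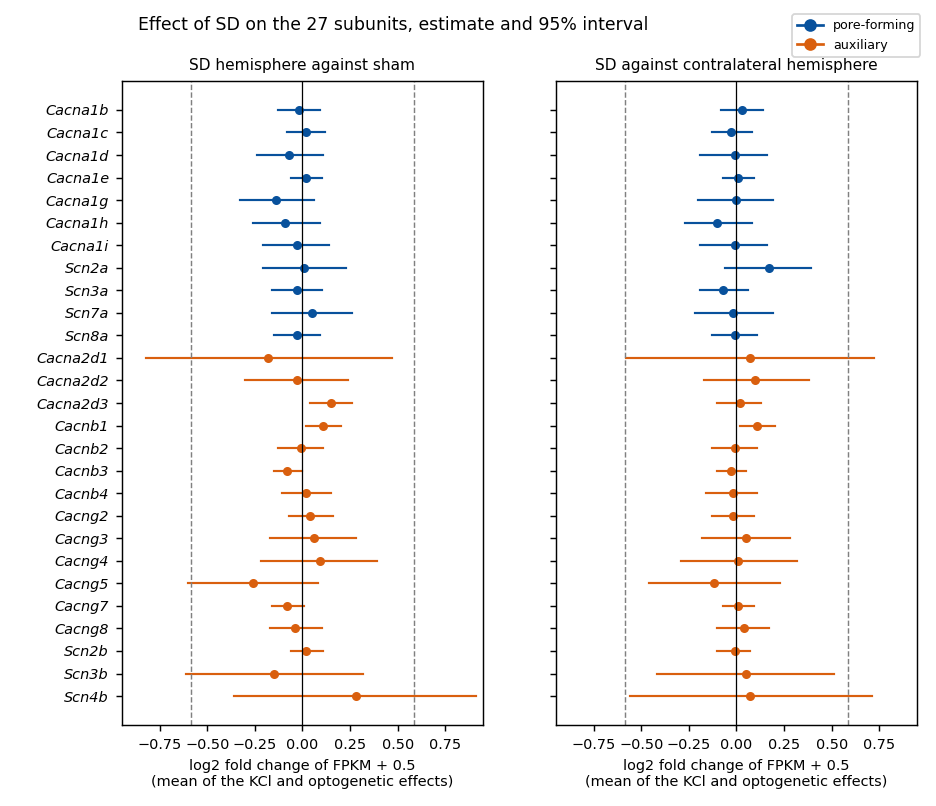
Log2 fold change of FPKM + 0.5 with its 95% interval (limma, 18 libraries) for the 27 subunit genes, SD against sham on the left and SD against the contralateral hemisphere on the right, blue for pore-forming and orange for auxiliary subunits. Values are the mean of the KCl and optogenetic effects. Dashed lines mark a 1.5-fold change, and intervals that cross them belong to Cacna2d1, Cacng5, Scn3b and Scn4b on the left and to Cacna2d1 and Scn4b on the right.

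The second comparison set the SD hemisphere against the contralateral hemisphere of the same mice. The fit held no term for the mouse, so the paired sides were tested as separate groups. Limma called 0 of 27 in the KCl system, against 0.347% of all genes, and 0 of 27 in the optogenetic system, against 0.531%. At an unadjusted p under 0.05 there were 2 of 27 in each system, against 9.88% and 8.72% of all genes, and groups did not overlap for 2 and 7 of 27, against 17.2% and 14.9%. In the fit of both systems 0 of 27 were called against 1.73%, and 1 of 27 had an unadjusted p under 0.05 against 12.4%. In this fit 25 of 27 had a 95% interval within 1.5-fold, against 93.1% of all genes. That bound is on the mean of the 2 systems, in which opposite effects cancel, as for Cacng4 below. Fitted alone, the KCl system had 22 of 27 within it and the optogenetic system 21 of 27 (share of all genes not given). Cacna2d1, Cacna2d2, Cacng4 and Scn4b were outside in both. Within mice, 0 of 27 had 1 direction of difference in all 6 mice, against 10.1% of all genes. With a block for the replicate number, limma's unadjusted p in the KCl system was 0.0339 for Cacnb1, 0.0397 for Cacna2d2 and 0.0428 for Cacng4. It was 0.0462 for Scn4b, 0.0483 for Cacna2d3 and above 0.05 for the other genes. None was called (adjusted p from 0.401 to 0.441 for the genes named). With a block for the mouse and stimulated mice alone, the unadjusted p of the genes named was from 0.0518 to 0.0975. Stimulus, SD and side of the brain go together here and cannot be told apart.

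In the KCl system the smallest p was that of Cacna2d2, at 3.95, 4.78 and 4.97 FPKM on the SD side and at 4.37, 3.02 and 2.70 on the other side. The log2 fold change was 0.41 (SE 0.15, adjusted p = 0.431), and the sides overlapped. The low values are those of KCl contralateral 2 and 3, the libraries lowest in striatal markers, and with the striatal covariate described further on the difference became 0.13 (adjusted p = 0.851). Cacnb1 followed with 0.16 (SE 0.06, adjusted p = 0.459), its contralateral libraries being at 21.4, 19.7 and 18.3 FPKM, all below the SD side. Cacna2d3 had 0.17 (SE 0.08, adjusted p = 0.514). Over both systems the first were Cacnb1 at 0.11 (SE 0.04, adjusted p = 0.282), Scn2a at 0.17 (SE 0.10, adjusted p = 0.566) and Cacna1h at -0.10 (SE 0.08, adjusted p = 0.712).

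In the optogenetic system the smallest p-values were those of Cacng4 and Scn4b. Cacng4, a TARP, was at 9.95, 11.3 and 8.66 FPKM on the SD side and at 13.2, 14 and 13.6 on the other side, without overlap and with a log2 difference of -0.44 (SE 0.12, adjusted p = 0.311). Scn4b was at 42.9, 43.9 and 23.4 FPKM against 62.4, 73.4 and 55.5, which is -0.83 on the log2 scale (SE 0.29, adjusted p = 0.453). In the KCl system the estimate had the opposite sign, 0.46 (SE 0.24) for Cacng4 and 0.98 (SE 0.46) for Scn4b, and neither was called there. That sign held in KCl mice 2 and 3, with differences of 0.77 and 0.81 for Cacng4 and of 1.48 and 1.87 for Scn4b, while KCl mouse 1 had -0.20 and -0.40 (log2). On the KCl SD side Cacng4 was at 12.7, 12.9 and 13.5 FPKM and Scn4b at 33.5, 31.5 and 46.2. The next in the optogenetic system was Cacng7, whose sides did not overlap either, at 0.10 (SE 0.05, adjusted p = 0.654).

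The contralateral hemisphere against sham gave 0 of 27 in the KCl system, against 0.00771% of all genes, 0 of 27 in the optogenetic system, against 0.00769%, and 0 of 27 in both together, against 0.0155%. The counts at an unadjusted p under 0.05 were 3, 4 and 2 of 27, against 5.6%, 5.8% and 4.9%. Groups did not overlap for 2 and 4 of 27, against 10.7% and 10.9%. Scn2a was at 24.2, 23.5 and 24.5 FPKM in KCl contralateral and at 26.3, 26.0 and 27.2 in NaCl sham, the smallest p there, with a difference of -0.14 (SE 0.04, adjusted p = 0.877). Cacnb1 had -0.18 (SE 0.06) and Cacna2d2 -0.39 (SE 0.15), both with an adjusted p = 0.877 as well. Cacng4 was again the first in the optogenetic system, at 0.41 (SE 0.12, adjusted p = 0.843), with sham libraries at 8.44, 11.6 and 10.6 FPKM. Cacnb1 at 0.19 (SE 0.06) and Cacna2d3 at 0.22 (SE 0.07) shared that adjusted p, and all 3 separated from sham. Striatal markers moved with these groups, 4 of 5 having an unadjusted p under 0.05 and the 5 a median of 0.92 (log2), and with the striatal covariate Cacng4 became 0.10, Cacna2d3 0.06 and Cacnb1 0.24 (adjusted p = 0.981 for each). In the fit of both systems Cacna2d3 had 0.13 (SE 0.05), Cacng7 -0.09 (SE 0.04) and Scn2a -0.16 (SE 0.10), each with an adjusted p = 0.978. These comparisons reuse the contralateral libraries of the side comparison.

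An interaction term asked whether KCl and light differed in their effect. For SD against sham 0 of 27 were called and 3 had an unadjusted p under 0.05. For SD against contralateral 0 were called and 5 had an unadjusted p under 0.05. Over all genes limma called 0% in both, and 5.53% and 6.14% had an unadjusted p under 0.05. Cacng4 had the smallest p for the sides, with a difference of 0.90 (SE 0.29, adjusted p = 0.695), followed by Scn4b with 1.82 (SE 0.60, adjusted p = 0.695) and Cacna2d3 with 0.31 (SE 0.11, adjusted p = 0.703). For SD against sham it was Cacnb1, with -0.26 (SE 0.08, adjusted p = 0.879), followed by Cacnb2 with 0.25 (SE 0.11) and Cacnb3 with -0.16 (SE 0.07) at the same adjusted p. The striatal covariate described further on changed the differences for the sides most. They became 0.13 for Cacng4, 0.20 for Scn4b and 0.14 for Cacna2d3 (adjusted p = 0.997 for each). For SD against sham they became -0.29 for Cacnb1, 0.21 for Cacnb2 and -0.13 for Cacnb3.

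The results for Scn4b and Cacng4 moved with the level of striatal markers. Scn4b, a beta subunit linked to resurgent sodium current and abundant in striatal neurons, had the widest spread of the 27 genes over the 18 libraries, from 11 to 73.4 FPKM, wider than in 98.7% of all genes. The 5 striatal markers were Drd1, Drd2, Adora2a, Ppp1r1b and Rgs9. The libraries with the lowest striatal sums, KCl contralateral 2 and 3 at 24.1 and 25.8 FPKM, were the lowest in Scn4b, at 11 and 12.3, and in Cacng4, at 7.33 and 7.52. KCl contralateral 1, in the same group, had a striatal sum of 103 with Scn4b at 44.4 and Cacng4 at 14.6. The optogenetic contralateral libraries had striatal sums of 129, 130 and 111 FPKM and ranked 2, 1 and 4 of 18 in Scn4b. Drd2, a receptor of striatal projection neurons, was at 0.287 and 0.592 FPKM in KCl contralateral 2 and 3 and at 10.4 to 11.7 in optogenetic contralateral.

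Scn4b and Cacng4 were not alone in following the striatal markers. Over the 18 libraries, the correlation of log2 level with the mean log2 level of the 5 markers was 0.96 for Scn4b, 0.87 for Cacng4, 0.75 for Cacna2d3, 0.62 for Scn2b and 0.59 for Cacnb1 (Pearson's r). Among all genes these ranked at percentiles 99.9, 99.7, 99.2, 98.4 and 97.8. They are given as a description, since 12 of the libraries are paired sides of 6 mice and the groups differ in striatal markers. Scn2b, although among these, had a narrower range than its neighbour Scn4b. It was at 57.5 and 61.5 FPKM in KCl contralateral 2 and 3, and at 63.7, 70.3 and 62.4 in optogenetic contralateral, within a range of 56.5 to 70.3 over all 18 libraries. With the mean log2 level of the striatal markers added as a covariate, an alternative chosen after seeing the data, the Scn4b difference between the sides became -0.08 with KCl and -0.20 with light (adjusted p = 0.931 and 1). That of Cacng4 became -0.06 and -0.19 (adjusted p = 0.920 and 0.983). The covariate is measured in the same libraries, so these values describe and do not separate a share of striatal tissue from a change within cells. Without KCl contralateral 1, the library of its group with the high striatal sum, Scn4b was called in KCl SD against contralateral, at 1.61 on the log2 scale (adjusted p = 0.0408). The interaction then called Scn4b at 2.44 and Cacng4 at 1.21 (adjusted p = 0.0415 for each). How many of all genes were called without that library is not given here. The striatal markers themselves were called in 0 of 5 in each comparison within a system (3 and 2 of 5 at an unadjusted p under 0.05 between the sides, and 4 of 5 in optogenetic contralateral against sham), and their medians had the signs of Scn4b between the sides, 1.66 for KCl and -0.77 for optogenetic SD against contralateral (log2).

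**Figure D4:**
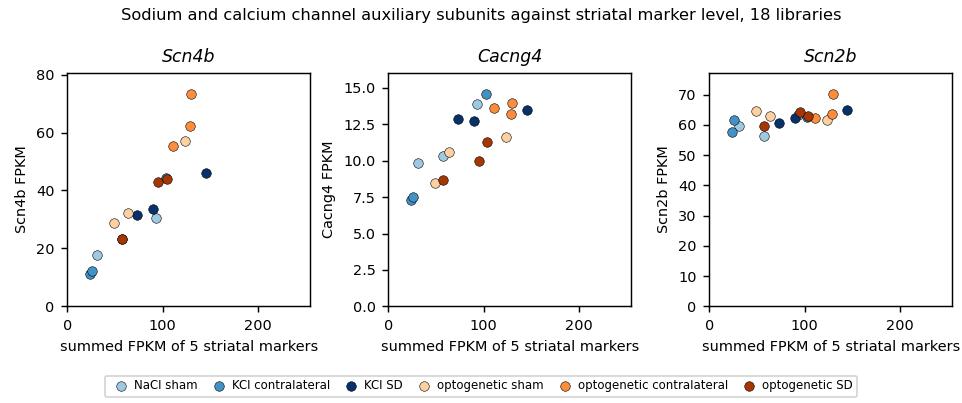
FPKM of Scn4b, Cacng4 and Scn2b (y axes, from 0) against the summed FPKM of 5 striatal markers (x axis) in each of the 18 libraries, coloured by group. Scn4b and Cacng4 are lowest in the 2 KCl contralateral libraries with striatal sums of 24.1 and 25.8, while Scn2b stays between 56.5 and 70.3 FPKM throughout.

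Between the 2 systems some channel genes were called, unlike in the comparisons of SD and control. In NaCl sham against optogenetic sham, limma called 5 of 27 lower and 0 higher, against 15.9% of all genes called, 9.64% lower and 6.3% higher. The 5 were all 3 T-type pores, the R-type pore Cacna1e and the TARP Cacng8. The applied fluid, the ChR2 transgene and whatever else differed between the systems cannot be told apart. The tables of the systems were deposited separately, and whether their libraries were processed together is not given in the sources used here. Cell type markers differed as well: 3 of 5 oligodendrocyte markers were called lower in NaCl sham, whose sums were between 368 and 383 FPKM against 412 and 569 in optogenetic sham. In the same comparison 2 of 5 neuronal and 3 of 5 mural (vessel wall) markers were called higher. So were the interneuron marker Sst, the excitatory neuron marker Tbr1 and the meningeal marker Col1a2, while the astrocyte marker Aldh1l1 was called lower. The remaining marker lists held no call. The part of these cell types in the channel results was not tested.

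The T-type genes shared the direction. Cacna1i (chromosome 15, 80287238 to 80398279) was at 7.94, 8.57 and 9.87 FPKM in NaCl sham and at 13.5, 12.6 and 11.2 in optogenetic sham, a log2 difference of -0.48 (SE 0.12, adjusted p = 0.0116). Cacna1g was at 3.94, 4.79 and 5.6 against 8.09, 6.52 and 6.78, with -0.54 (SE 0.13, adjusted p = 0.0108). Cacna1h was at 3.9, 3.32 and 3.5 against 4.73, 5.69 and 5.12, with -0.48 (SE 0.12, adjusted p = 0.0125). In none of the 3 did the sham groups overlap. Summed, the T-type pores came to 17.1 ± 1.65 FPKM in NaCl sham and 24.7 ± 1.58 in optogenetic sham (± standard deviation, n = 3 each). Cacna1i, Cacna1g and Cacna1h kept similar shares of that sum, 50.7%, 27.3% and 22% in the KCl system and 52.4%, 27.1% and 20.5% in the optogenetic system.

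Cacng8 (chromosome 7, 3390683 to 3415648), whose product holds AMPA receptors at synapses, had the smallest p. It was at 18.1, 14.9 and 17 FPKM in NaCl sham and at 25.9, 21 and 24.7 in optogenetic sham, with a difference of -0.51 (SE 0.09, adjusted p = 0.00165). Its neighbour Cacng7, at 53.8, 56.9 and 58.9 against 52.9, 51.2 and 50.7, had the opposite sign, 0.13 (SE 0.05, adjusted p = 0.114), and was not called. Cacna1e, at 14.8, 14.7 and 14.4 against 17.5, 16 and 16.1, had -0.17 (SE 0.05, adjusted p = 0.0418). Cacna1c, an L-type pore, also separated, at -0.15 (SE 0.07, adjusted p = 0.146), without a call. With median-of-ratios scaling the call of Cacna1e was lost (adjusted p = 0.0649), as it was with quantile scaling (0.0525) and with the prior variance held constant (0.0561). With the striatal covariate the 5 were called and Cacng4 was called higher as well, by 0.32 (adjusted p = 0.00899) against 0.14 without the covariate (adjusted p = 0.682), which made 6 of 27. The count of 5 came down to 2 without NaCl sham 1, when Cacng8 and Cacna1h were left, and to 3 without optogenetic sham 1 or without optogenetic sham 2. Cacna1g was lost without NaCl sham 1 (adjusted p = 0.0526) or optogenetic sham 1 (0.0511), Cacna1i without NaCl sham 1 (0.052) and Cacna1h without optogenetic sham 2 (0.0592). Cacna1e was lost in many of these refits, with an adjusted p of up to 0.157 without optogenetic sham 1. Cacng8 kept its call in every one. The share of all genes called in each refit was not set beside these counts. All 5 kept their sign with median-of-ratios and with quantile scaling. Groups did not overlap for 8 of 27, against 32.7% of all genes.

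The SD hemispheres and the contralateral hemispheres of the systems were compared as well, in comparisons added after seeing the data. These use other libraries of the same systems. Limma called 6 of 27 in KCl SD against optogenetic SD, 1 higher and 5 lower, against 20.2% of all genes, 7.11% higher and 13.1% lower. In KCl contralateral against optogenetic contralateral it called 5 of 27, all lower, against 15.2% of all genes, 5.07% higher and 10.1% lower. Groups did not overlap for 10 of 27 in each, against 39.7% and 34.1%. Cacna1h, Cacna1i and Cacng8 were called lower in the KCl system in all 3 pairs of groups, 3 of 27 genes, against 7.37% of all genes called in all 3. Side by side, for sham, SD and contralateral, the log2 differences were -0.48, -0.61 and -0.67 for Cacna1i, -0.48, -0.39 and -0.40 for Cacna1h, and -0.51, -0.56 and -0.43 for Cacng8. For Cacna1g they were -0.54, -0.69 and -0.32, the last not called (adjusted p = 0.111). Groups also separated without a call for Cacna1e and Scn7a between the SD groups, at -0.14 (SE 0.05, adjusted p = 0.079) and 0.36 (SE 0.14, adjusted p = 0.0779). Between the contralateral groups the same held for Cacna2d3 at -0.22 (SE 0.08, adjusted p = 0.0581) and Cacng7 at 0.17 (SE 0.05, adjusted p = 0.0504).

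Over all 9 libraries of each system, Cacna1i ranged from 7.19 to 9.87 FPKM in the KCl system and from 11.1 to 14.9 in the optogenetic system. Cacng8 ranged from 14.9 to 18.1 and from 20.9 to 25.9, and Cacna1h from 2.70 to 4.27 and from 4.47 to 5.69. In these 3 of 27 genes the systems did not overlap in any library, which was also so for 9.52% of all genes. The beta subunits differed between the systems in 1 or 2 pairs. Cacnb1 was called lower in KCl SD (-0.22, SE 0.06, adjusted p = 0.0185) and in KCl contralateral (-0.32, SE 0.06, adjusted p = 0.00242), with 0.04 between the sham groups. Cacnb2 was called higher in KCl SD than in optogenetic SD, by 0.30 (SE 0.08, adjusted p = 0.0131), at 4.73, 4.66 and 3.88 against 3.57, 3.47 and 3.4 FPKM. Scn4b was called lower in KCl contralateral than in optogenetic contralateral, by a log2 difference of -1.77 (SE 0.42, adjusted p = 0.0111), where 4 of the 5 striatal markers were called lower too.

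**Figure D5:**
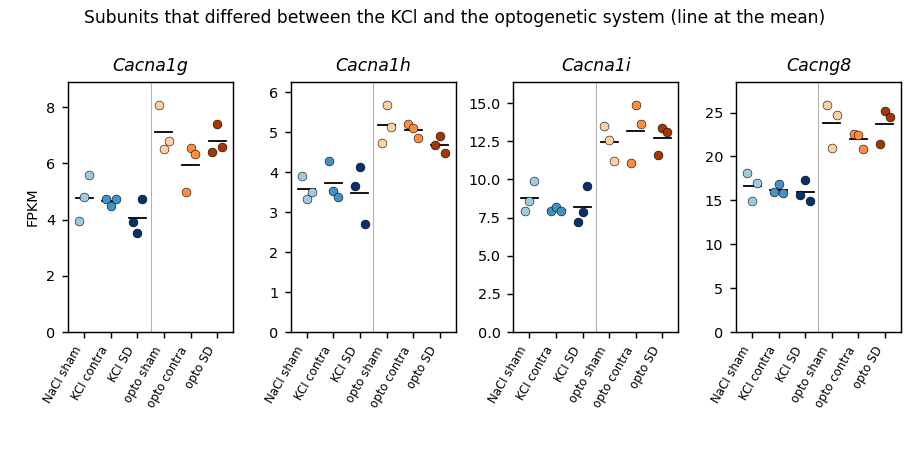
FPKM (linear axes from 0) of the T-type genes Cacna1g, Cacna1h and Cacna1i and of Cacng8 by group, 3 points per group and a line at the mean, KCl system left of the grey line. Every KCl library of Cacna1h, Cacna1i and Cacng8 lies below every optogenetic library.

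Proteins that bind or regulate these channels were read from a list of 37 genes, 34 of which were tested (Rrad, Rem1 and Stac were not). In each of the 6 comparisons within a system and in the 3 over both systems, 0 of the 34 were called. Rem2, a small GTPase of the RGK family that inhibits high-voltage-activated calcium channels, had the largest difference of the 34 in the KCl system among those at an unadjusted p under 0.05. It was at 5.5 ± 0.817 FPKM in KCl SD, 2.19 ± 0.785 in KCl contralateral and 2.64 ± 1.21 in NaCl sham (± standard deviation, n = 3). Its log2 fold change in KCl SD was 1.19 against contralateral (SE 0.28, adjusted p = 0.201) and 1 against sham (SE 0.28, adjusted p = 0.389). In the optogenetic system it was at 4.02 ± 0.825, 3.55 ± 0.495 and 3.51 ± 1.07 in SD, contralateral and sham, and over both systems its difference between the sides was 0.67 (SE 0.18, adjusted p = 0.098).

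Between the sham groups 4 of the 34 were called higher and 4 lower in the KCl system, where 6.3% of all genes were called higher and 9.64% lower. The 6 with the smallest p were Sptbn4 and Nfasc, which build the axon initial segment where sodium channels cluster, at -0.49 (SE 0.07, adjusted p = 3.36e-04) and -0.26 (SE 0.06, adjusted p = 0.00755), the calcium release channels Ryr1 and Ryr3 at -0.77 (SE 0.12) and -0.56 (SE 0.12), and the release machinery genes Snap25 at 0.23 (SE 0.06) and Rims2 at 0.29 (SE 0.08). Sptbn4 was at 14.3 ± 0.375 FPKM in NaCl sham and at 20.4 ± 1.9 in optogenetic sham.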

How the data were processed

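Poly(A) RNA of 18 mouse cortex libraries was sequenced with a stranded kit and paired reads, per the labels' protocols. The authors computed FPKM with StringTie on GRCm38, per the submitters' processing notes, and no version is given in the sources used here. The deposited tables hold the FPKM of each library and, for each of 6 pairs of groups, deposited columns of fold change both on the log2 scale and as a linear ratio, besides p-values and q-values by the authors. Their 2 columns of group levels were checked to hold the mean log2(FPKM + 1) of the deposited values. Each listed gene reached a mean of 0.5 FPKM in 1 of the groups compared. The left hemisphere is the SD side, as the tables' group columns name it.

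Linear models of log2(FPKM + 0.5) were made here in R 4.3.3 using limma 3.58.1, its prior variance following mean expression. A gene entered if it averaged 0.5 FPKM or more over the libraries of the fit. All 27 channel genes passed. Each system was fitted with its 9 libraries, and both systems, their interaction and the sham groups with all 18. The main fits held no block for the mouse or the replicate number. Calls used the Benjamini-Hochberg adjusted p over all genes of the fit, under 0.05. The pseudocount makes log2 fold changes of low genes too small. SE is limma's standard error.

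The genes, lists and markers were chosen with earlier results of these data known. All 27 genes get their level. Statistics are given for genes called, for the 3 smallest p of each comparison and for genes at an unadjusted p under 0.05 without overlap, and the remaining examples were chosen after their values were seen. Same-numbered left and right libraries are 1 mouse by their titles, while sham mice share only the number. The correlation of such sides around their group means was 0.0601, 0.0652 and 0.0396 in the KCl mice and 0.137, -0.0893 and 0.0166 in the optogenetic mice. Alternatives were other pseudocounts (0.1 and 1), filters (none, and a mean of 2 FPKM), a constant prior variance, scaling by quantiles or by median-of-ratios, replicate blocks, the authors' q-values, leaving out each library, and a striatal covariate added later. The fit was tested on simulated data. Python 3.11.15 with pandas 2.3.3 served for reading and counting.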

Additional observations from a re-analysis of the deposited data

Results flagged for a closer look

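In 2 of the 27 genes the difference between the hemispheres pointed one way in all 3 KCl mice and the other way in all 3 optogenetic mice, as it did in 4.27% of all genes. Cacna1g, a T-type calcium channel pore, differed by -0.26, -0.31 and -0.00 (SD side minus other side, log2) in the KCl mice and by 0.33, 0.17 and 0.05 in the optogenetic mice. Its effect in the KCl system minus that in the optogenetic system was -0.37 (SE 0.18), and limma's interaction test did not call it (adjusted p = 0.815). Cacna2d3, an alpha2delta subunit, differed by 0.05, 0.20 and 0.27 in the KCl mice and by -0.12, -0.11 and -0.18 in the optogenetic mice. The effects differed by 0.31 (SE 0.11), which was not called either (adjusted p = 0.703). The striatal marker sum was lower on the SD side in KCl mouse 1 and in the 3 optogenetic mice and higher in KCl mice 2 and 3. With the striatal covariate the interaction became -0.28 for Cacna1g and 0.14 for Cacna2d3 (adjusted p = 0.997 for each). Over the 18 libraries the log2 level of Cacna2d3 had a correlation of 0.75 with the markers and that of Cacna1g one of 0.11 (Pearson's r, a description).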

How the results depend on the processing

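Over the 12 comparisons, 276 recounts of called channel genes stayed within 1.5 times the reported count and 5 did not. The reported count was 0 in each comparison except NaCl sham against optogenetic sham, so most of the 276 set 0 beside 0. With a replicate block, SD against sham over both systems called 0 of 27 and NaCl sham against optogenetic sham 4 of 27, Cacna1e being lost (-0.17, adjusted p = 0.0669). The block stands for the mouse in stimulated mice and for a number in sham mice, and it moved no count beyond that limit. A block for the mouse, with stimulated mice alone, changed no call between the hemispheres. Leaving out 1 library (KCl contralateral 1 for the first 2), KCl SD against contralateral gave 0 to 1 called genes, its interaction 0 to 2, and NaCl sham against optogenetic sham 2 to 5, with 2 without NaCl sham 1 and 3 without optogenetic sham 1 or 2. The remaining comparisons gave 0 throughout. Of the values of genes named by the rule in a comparison, 906 kept direction and side of the threshold, which says nothing of their size. Of the rest, 19 lost the call, 2 gained it and 0 changed sign. The cause was not tested. Outside that rule, the striatal covariate turned the sign of Scn4b and Cacng4 in KCl SD against contralateral (-0.08 and -0.06) and added Cacng4 to the calls between the sham groups (6 of 27). Recounts of the 27 are given without the share of all genes called in the same refit, so a shift over all genes cannot be told apart. Depth is unknown, so no counting error is given.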
